A study of Mus musculus with 15 samples.

Results

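Kupffer cells are the resident macrophages of the liver, and monocytes are the blood cells that can follow them into the tissue. A total of 35 genes that mark these cells or macrophages in general were followed in liver RNA of mice that lack Stab1, the gene of the scavenger receptor Clever-1. The genes were taken by symbol from a table of 19464 gene rows, with no filter on their values. Earlier results of these data were known when the list was chosen. The list gave 36 names, of which Emr1 and Adgre1 are 1 gene, and each of the 35 genes stood on 1 row. They were read in 5 groups by role, with 8 markers of resident Kupffer cells, 3 chains of the complement protein C1q, 7 markers of monocytes and recruited cells, 12 genes shared by most macrophages, and 5 genes for the uptake and handling of dying cells, lipid and heme.

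Liver RNA was sequenced from 4 Stab1-/- and 4 wildtype mice at 2 weeks of age, and from 3 Stab1-/- and 4 wildtype animals at E17.5, a day late in gestation. The labels give the strain background C57BL/6N;129SvJ for every animal of both genotypes and name neither a treatment nor a sex. The knockout removes Clever-1 from all cells, so endothelial cells lack it as well as macrophages. Neither the labels nor the text of the study say whether wildtype animals were littermates, or that the numbered animals of a group came from separate litters, so p-values measure the spread between these animals only.

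Resident Kupffer cells descend largely from precursors that seed the fetal liver and then renew in place, and they line the sinusoids, where they clear particles and old blood cells from the portal flow. At the embryonic stage studied, the liver is also the main site of blood formation, and it holds monocytes, granulocytes and their precursors beside red cell precursors. After birth, blood formation moves to the bone marrow, and the remaining macrophages take on genes that are typical of the adult Kupffer cell, such as Clec4f and Vsig4.

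The depth of the 15 libraries lay between 9659 and 10964 uniquely mapped reads in units of 1000. Stab1 itself stood at 0.862 to 1.54 RPKM in Stab1-/- and 7.30 to 11.0 RPKM in wildtype libraries at 2 weeks, and at 3.60 to 5.23 RPKM and 14.9 to 21.8 RPKM at E17.5, so each library matched its labelled genotype. RPKM is the number of reads relative to the gene's length in kilobases and to the library's counted reads, and so allows levels of different genes to be compared. All 8 hepatocyte markers were read in every library, with a summed level between 67630 and 118800 RPKM. The study's list of genes higher in Stab1-/- liver at E17.5 holds intestinal genes such as Alpi and Fabp2. Whether those samples held other tissue was not tested. The share of reads on Alb, the gene of serum albumin, was highest in wildtype replicate 4 at 2 weeks (13.9%, against 10.5% to 11.5% in the other wildtype libraries and 7.65% to 9.79% in Stab1-/- libraries of that age). That library was also the lowest of its group for 22 of the 35 genes, and Stab1-/- replicate 4 was the lowest of its group for 24. Both libraries stayed in the fits.

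The upstream sequences of a few members are shown because the results below turn on these genes: Cx3cr1 and Lgmn as the genes that differed by genotype, Vsig4 as the gene that rose most with age, and C1qb and C1qc as close neighbours whose levels lay close together. The sequences come from RefSeq on GRCm38.p6, which lists 27 of the 35 genes, and each is the 250 bases before a listed transcription start, written along the gene's strand. Adgre1, C1qa, Cd14, Cd86, Csf1r, Hmox1, Sirpa and Tyrobp had no entry. Capitals mark GAGGAA, the core of sites that the myeloid factor PU.1 is known to bind, searched on either strand, so that GAGGAA on the other strand reads TTCCTC, as in the C1qc window. CACGTG, the E-box letters of the TFE and MITF factors of lysosomal genes, was searched too.
Cx3cr1: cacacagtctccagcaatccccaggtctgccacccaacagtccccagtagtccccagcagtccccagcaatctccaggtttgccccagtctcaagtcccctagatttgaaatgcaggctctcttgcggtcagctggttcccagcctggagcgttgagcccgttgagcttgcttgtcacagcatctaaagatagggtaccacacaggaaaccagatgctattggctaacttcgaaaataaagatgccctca
Lgmn: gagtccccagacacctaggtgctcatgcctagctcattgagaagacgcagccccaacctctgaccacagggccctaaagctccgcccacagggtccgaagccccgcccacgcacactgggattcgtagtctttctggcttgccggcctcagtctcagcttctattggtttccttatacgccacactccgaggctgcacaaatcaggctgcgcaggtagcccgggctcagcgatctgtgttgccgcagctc
Vsig4: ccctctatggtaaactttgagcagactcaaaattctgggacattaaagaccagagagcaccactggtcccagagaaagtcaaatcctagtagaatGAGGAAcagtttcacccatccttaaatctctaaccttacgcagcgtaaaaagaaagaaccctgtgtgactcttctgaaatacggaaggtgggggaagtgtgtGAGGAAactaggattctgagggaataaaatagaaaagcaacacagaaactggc
C1qb: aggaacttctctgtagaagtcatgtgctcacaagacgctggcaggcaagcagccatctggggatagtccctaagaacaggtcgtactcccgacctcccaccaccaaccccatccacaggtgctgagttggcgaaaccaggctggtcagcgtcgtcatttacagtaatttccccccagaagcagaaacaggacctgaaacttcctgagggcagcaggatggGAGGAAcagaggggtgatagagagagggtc
C1qc: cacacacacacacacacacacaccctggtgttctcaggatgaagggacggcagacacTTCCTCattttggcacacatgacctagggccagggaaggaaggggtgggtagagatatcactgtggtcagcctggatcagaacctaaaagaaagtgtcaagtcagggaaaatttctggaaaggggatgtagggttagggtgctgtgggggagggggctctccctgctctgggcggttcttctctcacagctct
All 5 windows lie on the minus strand, at chr9:120068297-120068546 for Cx3cr1, chr12:102439729-102439978 for Lgmn, chrX:96293439-96293688 for Vsig4, chr4:136886201-136886450 for C1qb and chr4:136892915-136893164 for C1qc. The gene model of Cx3cr1 in GENCODE vM21 reaches further upstream, to base 120069879, so its window lies inside that model. RefSeq gives 2 starts for Lgmn. The one shown was taken because the 30 bases beginning 20 bases after it stand in a GENCODE vM21 transcript of Lgmn, and its window holds none of the motifs searched. The corresponding bases of the other start stand in none, and the window of that start holds CACGTG once. The letters GAGGAA were found upstream of 13 of the 27 genes (48.1%), against 25.9% of the 27025 genes in the table, and the Vsig4 window holds them at 2 places. The longer GAGGAAGT, which contains GAGGAA, was found for C1qc and Ly6c2 (7.41%, against 2.79%). Ly6c2 and Axl are counted for GAGGAA although they fail the check used for Lgmn. The bases after their listed starts stand in no GENCODE vM21 transcript of the gene. CACGTG was found for Lgmn alone (3.7%, against 6.86%), in the window of the other start only. These are matches of letters and say nothing of whether a factor binds there, and no expression value was compared with them.

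The first question was which of these genes differ between Stab1-/- and wildtype liver. At 2 weeks 1 member was higher in Stab1-/- mice and none was lower, and at E17.5 again 1 was higher and none lower. The gene at 2 weeks was Cx3cr1, the receptor for the chemokine fractalkine that marks patrolling monocytes and their early tissue descendants. At E17.5 it was Lgmn, which encodes the lysosomal protease legumain. With edgeR none of the 8 markers of resident Kupffer cells and none of the 3 chains of C1q passed at either age. Of the resident markers 3 at 2 weeks and 1 at E17.5 had an unadjusted p under 0.05, and of the chains 0.

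These counts come from edgeR's quasi-likelihood test over all genes with enough reads, with Benjamini-Hochberg adjusted p-values and a limit of 0.05. At 2 weeks 33 members had enough reads (Gpnmb and Trem2 did not), and the 1 call is 3.03% of them, beside 2.67% of all 12716 rows tested. At E17.5 34 members were tested (all but Gpnmb), and the 1 call is 2.94%, beside 0.366% of 13388 rows. An unadjusted p under 0.05 was reached by 12 members at each age, and how many of all rows reached it was not counted. DESeq2 called 4 members at 2 weeks, all higher (Nr1h3, Clec7a and Fcgr1 beside Cx3cr1), and 5 at E17.5, of which Lgmn, Cx3cr1 and Hmox1 were higher and Fcgr3 and Lyz2 lower. Of 17882 rows fitted at 2 weeks DESeq2 called 420 higher and 441 lower. At E17.5 it called 130 higher and 105 lower of 18730 rows. In whole liver, a change in the number of cells of a type and a change in RNA per cell cannot be told apart.

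Most members lay slightly above 0 at 2 weeks. The log2 fold change of Stab1-/- over wildtype was positive for 22 of 33 members, with a median of 0.17 beside -0.01 over all rows. This median was 0.10 without wildtype replicate 4 and 0.08 without Stab1-/- replicate 2. At E17.5 it was positive for 21 of 34, with a median of 0.04 beside 0.00 over all rows. That median moved with every library left out, from -0.02 (16 positive, without wildtype replicate 4) to 0.13 (25 positive, without Stab1-/- replicate 1), and was -0.02 under library totals (16 positive). Levels of the 2 genotypes did not overlap for 4 of 33 members at 2 weeks (12.1%, against 14.9% of all rows), all 4 of them above in Stab1-/- mice: Nr1h3, Cx3cr1, Clec7a and Tyrobp. At E17.5 they did not overlap for 10 of 34 members (29.4%, against 12.2% of all rows). There Cx3cr1, Lgmn, Trem2 and Hmox1 lay above, and Nr1h3, Ccr2, Ly6c2, Lyz2, Fcgr3 and Fcer1g lay below.

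**Figure D1:**
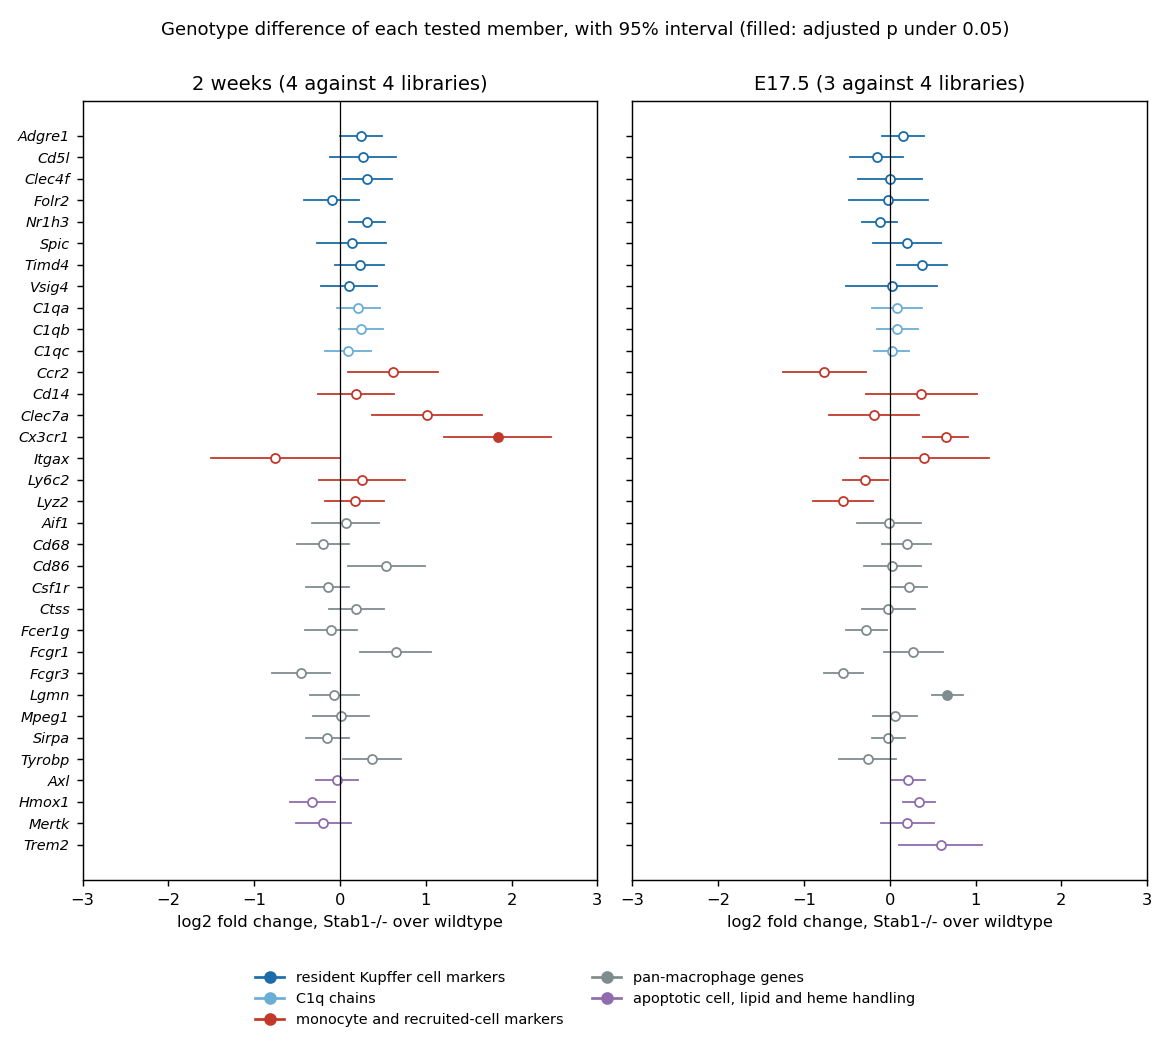
Log2 fold change (x axis) of Stab1-/- over wildtype liver for each tested member (rows, coloured by group of members), at 2 weeks (left) and E17.5 (right), with points for the edgeR estimate and lines for its 95% interval. Filled points have an adjusted p under 0.05, which holds for Cx3cr1 at 2 weeks (1.84) and Lgmn at E17.5 (0.67).

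Among the markers of resident Kupffer cells, Clec4f encodes the C-type lectin that is the most specific mark of the mouse Kupffer cell. At 2 weeks Clec4f stood at 129, 123, 99.2 and 95.7 RPKM in Stab1-/- and 99.3, 82.2, 90.1 and 65.2 RPKM in wildtype libraries. Only the highest wildtype library reached the range of the Stab1-/- libraries, and the log2 fold change was 0.32 (SE 0.13, adjusted p = 0.172). At E17.5 Clec4f stood at 30.96, 37.5 and 38.6 RPKM in Stab1-/- and 42.5, 43.1, 35.8 and 27.2 RPKM in wildtype libraries, which overlap throughout (log2 fold change 0.00, SE 0.17).

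Vsig4 encodes a complement receptor with which Kupffer cells catch bacteria from the blood. Its level at 2 weeks was 45.2, 45.8, 46.5 and 36.00 RPKM in Stab1-/- and 42.4, 36.5, 45.95 and 26.4 RPKM in wildtype libraries, and at E17.5 it was 4.38, 8.28 and 6.59 RPKM in Stab1-/- and 8.63, 6.21, 5.73 and 5.87 RPKM in wildtype libraries. The genotypes overlapped at both ages, with log2 fold changes of 0.10 (SE 0.15) and 0.02 (SE 0.24). Timd4 encodes the phosphatidylserine receptor Tim-4, a mark of long-lived resident macrophages. Timd4 at 2 weeks stood at 13.2, 15.1, 13.6 and 11.9 RPKM in Stab1-/- and 10.7, 11.03, 13.03 and 8.36 RPKM in wildtype libraries, and at E17.5 at 13.9, 16.5 and 16.96 RPKM in Stab1-/- and 11.2, 14.6, 13.8 and 11.3 RPKM in wildtype libraries. It was the resident marker with the largest estimate at E17.5 (log2 fold change 0.37, SE 0.13, adjusted p = 0.286), yet the groups overlapped.

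Cd5l encodes AIM, a macrophage protein secreted into plasma. At 2 weeks Cd5l stood at 121, 145, 107 and 101 RPKM in Stab1-/- and 115, 86.9, 109 and 60.3 RPKM in wildtype libraries, and at E17.5 at 91.2, 99.01 and 121 RPKM in Stab1-/- and 115, 142, 123 and 99.98 RPKM in wildtype libraries. The genotypes overlapped at both ages, and wildtype replicate 4 was the lowest library at 2 weeks. Adgre1, listed in the table under its older name Emr1, encodes the macrophage antigen F4/80. Adgre1 at 2 weeks stood at 18.3, 17.7, 19.7 and 14.3 RPKM in Stab1-/- and 15.1, 13.2, 15.2 and 11.8 RPKM in wildtype libraries, and at E17.5 at 23.02, 26.5 and 30.5 RPKM in Stab1-/- and 22.4, 26.5, 26.3 and 24.9 RPKM in wildtype libraries. Its log2 fold change was 0.25 (SE 0.11, adjusted p = 0.213) at 2 weeks and 0.16 (SE 0.11, adjusted p = 0.564) at E17.5.

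Of the other resident markers, Nr1h3 encodes LXRα, a sterol-sensing nuclear receptor that Kupffer cells depend on and that hepatocytes express too. Nr1h3 at 2 weeks stood at 65.4, 54.8, 59.2 and 58.2 RPKM in Stab1-/- and 44.6, 48.3, 39.7 and 46.8 RPKM in wildtype libraries, so the groups did not overlap, and the log2 fold change was 0.31 (SE 0.10, adjusted p = 0.0913). At E17.5 it stood at 14.1, 13.2 and 13.2 RPKM in Stab1-/- and 14.97, 15.1, 16.8 and 14.2 RPKM in wildtype libraries, and the highest Stab1-/- library lay just under the lowest wildtype one. Folr2, a folate receptor of tissue macrophages, and Spic, a factor of iron-recycling macrophages, had log2 fold changes between -0.10 and 0.20 at the 2 ages, none of which passed the test. Over the 8 resident markers, 7 estimates were positive at 2 weeks, with a median of 0.24, and without wildtype replicate 4 the median was 0.13, with 6 positive.

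The 3 chains of C1q, the recognition part of the classical complement pathway, are made in the liver mostly by macrophages, and their genes lie side by side on chromosome 4, with gaps of 2.9 kb between C1qa and C1qc and 3.6 kb between C1qc and C1qb. C1qa stood at 84.9, 91.8, 73.3 and 79.9 RPKM in Stab1-/- and 75.9, 67.8, 70.7 and 53.5 RPKM in wildtype libraries at 2 weeks, and at E17.5 at 69.8, 73.9 and 67.9 RPKM in Stab1-/- and 71.00, 77.9, 74.7 and 53.8 RPKM in wildtype libraries. C1qb stood at 118, 108, 89.7 and 84.4 RPKM in Stab1-/- and 89.6, 78.3, 83.9 and 66.3 RPKM in wildtype libraries at 2 weeks, and at E17.5 at 94.8, 104 and 102 RPKM in Stab1-/- and 102, 106, 103 and 82.3 RPKM in wildtype libraries. C1qc stood at 83.4, 96.1, 73.1 and 69.8 RPKM in Stab1-/- and 74.95, 73.6, 78.6 and 57.5 RPKM in wildtype libraries at 2 weeks, and at E17.5 at 85.1, 92.9 and 98.4 RPKM in Stab1-/- and 98.04, 95.8, 97.3 and 87.4 RPKM in wildtype libraries. The chains ran close together, and for each the lowest of the 8 libraries at 2 weeks was wildtype replicate 4. Their genotype estimates lay between 0.09 and 0.24 at 2 weeks and between 0.02 and 0.09 at E17.5. No adjusted p of the chains was below 0.243. Their median at 2 weeks was 0.21, and 0.13 without wildtype replicate 4.

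The monocyte markers showed the widest differences between genotypes. Cx3cr1 was read only 23, 40, 30 and 32 times in Stab1-/- and 11, 7, 5 and 11 times in wildtype libraries at 2 weeks, which is 0.621, 1.01, 0.828 and 0.876 RPKM and 0.2800, 0.188, 0.125 and 0.275 RPKM. Every Stab1-/- library lay above every wildtype library, at a level where a few reads count. Reads covered 27.6% to 38.9% of the gene model in Stab1-/- and 6.53% to 14.1% in wildtype libraries. The log2 fold change was 1.84 (SE 0.29, 95% interval 1.21 to 2.46, adjusted p = 0.00787), or 3.58-fold. The call held in each of the 8 fits that left out 1 library (1.66 to 1.99) and in the 10 other alternatives (0.59 to 1.93, the lowest with 1 RPKM added before the log).

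At E17.5 Cx3cr1 was read 176, 163 and 159 times in Stab1-/- and 128, 98, 110 and 113 times in wildtype libraries, or 4.46, 4.15 and 3.996 RPKM and 3.17, 2.499, 2.67 and 2.81 RPKM. The groups again did not overlap, and the log2 fold change of 0.65 (SE 0.12) did not pass the adjusted test (adjusted p = 0.0631), although it did with DESeq2.

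Ccr2 encodes the chemokine receptor with which inflammatory monocytes leave the bone marrow. At 2 weeks Ccr2 was read 50, 46, 39 and 28 times in Stab1-/- and 35, 30, 17 and 22 times in wildtype libraries (1.41, 1.21, 1.13 and 0.801 RPKM and 0.932, 0.843, 0.446 and 0.575 RPKM). The groups overlapped, with a log2 fold change of 0.62 (SE 0.24, adjusted p = 0.157). At E17.5 Ccr2 stood at 1.85, 2.16 and 3.47 RPKM in Stab1-/- and 4.400, 5.47, 3.61 and 4.19 RPKM in wildtype libraries. Here every Stab1-/- library lay below every wildtype library, and the log2 fold change was -0.76 (SE 0.22, adjusted p = 0.212).

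Ly6c2 marks the same classical monocytes. Ly6c2 stood at 3.94, 4.54, 2.96 and 2.93 RPKM in Stab1-/- and 2.84, 2.88, 3.55 and 2.04 RPKM in wildtype libraries at 2 weeks, and at E17.5 at 17.1, 18.4 and 17.46 RPKM in Stab1-/- and 24.9, 20.3, 23.6 and 20.6 RPKM in wildtype libraries. Its groups overlapped at 2 weeks, and at E17.5 the Stab1-/- libraries lay below (log2 fold change -0.28, SE 0.12, adjusted p = 0.358). Lyz2 encodes the lysozyme of macrophages, monocytes and granulocytes. Lyz2 stood at 80.2, 61.00, 60.3 and 50.3 RPKM in Stab1-/- and 68.2, 55.9, 48.98 and 37.2 RPKM in wildtype libraries at 2 weeks, and at E17.5 at 234, 266 and 254 RPKM in Stab1-/- and 440.3, 454, 323 and 314 RPKM in wildtype libraries. It overlapped at 2 weeks and lay below in Stab1-/- libraries at E17.5, where the log2 fold change was -0.55 (SE 0.15, adjusted p = 0.205), and DESeq2 called it lower. Lyz2 and Ly6c2 have near-identical neighbours, Lyz1 at 5.5 kb and Ly6c1 at 59.3 kb, so some of their reads may be lost or shared. Lyz1 had an estimate of -0.52 at E17.5 (SE 0.20, adjusted p = 0.331).

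The remaining monocyte and recruited-cell genes were Clec7a, Cd14 and Itgax. Clec7a, which encodes the β-glucan receptor Dectin-1, stood at 7.12, 5.11, 5.002 and 3.61 RPKM in Stab1-/- and 2.98, 3.100, 2.77 and 0.865 RPKM in wildtype libraries at 2 weeks. The groups did not overlap, wildtype replicate 4 was far below the rest, and the log2 fold change was 1.01 (SE 0.30, adjusted p = 0.0822). DESeq2 called it higher. Itgax, the integrin CD11c of dendritic cells and some macrophages, was below 0.5 RPKM in every library and had estimates of -0.75 at 2 weeks and 0.40 at E17.5. Cd14, the co-receptor for bacterial lipopolysaccharide, had estimates of 0.18 and 0.37, and none of these 3 genes passed edgeR's test at either age.

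Over the 7 genes of this group, 6 estimates were positive at 2 weeks (median 0.26) and 3 at E17.5 (median -0.18). With 1 library left out the first median was 0.18 to 0.40 (the ends without Stab1-/- replicate 2 and without wildtype replicate 3). The second was -0.31 without wildtype replicate 4, -0.27 without Stab1-/- replicate 3, -0.09 without wildtype replicate 1, -0.08 without Stab1-/- replicate 1 and -0.02 without wildtype replicate 2, and -0.04 with GC-content offsets. Markers of neutrophils and their precursors had median estimates of the same signs, and edgeR called none of them at either age. The summed level of 12 such genes was 209 to 445 RPKM in Stab1-/- and 52.5 to 171 RPKM in wildtype libraries at 2 weeks, with no gene at 0 in any library. At E17.5 it was 3946 to 4320 RPKM and 5569 to 8839 RPKM. At 2 weeks 9 of the 12 were tested (8 positive, median log2 fold change 0.74), of which 5 had an unadjusted p under 0.05 and DESeq2 called Camp. At E17.5 all 12 estimates were negative (median -0.35), of which 8 had an unadjusted p under 0.05 and DESeq2 called S100a8 and S100a9. Their genotype effect was higher at 2 weeks than at E17.5 for 3 of the 12, S100a8 (2.55), S100a9 (2.47) and Camp (1.80). Lyz2, Ccr2, Fcer1g and Fcgr3 are also expressed in cells of the granulocyte line, and the part of these cells in the values was not tested.

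**Figure D2:**
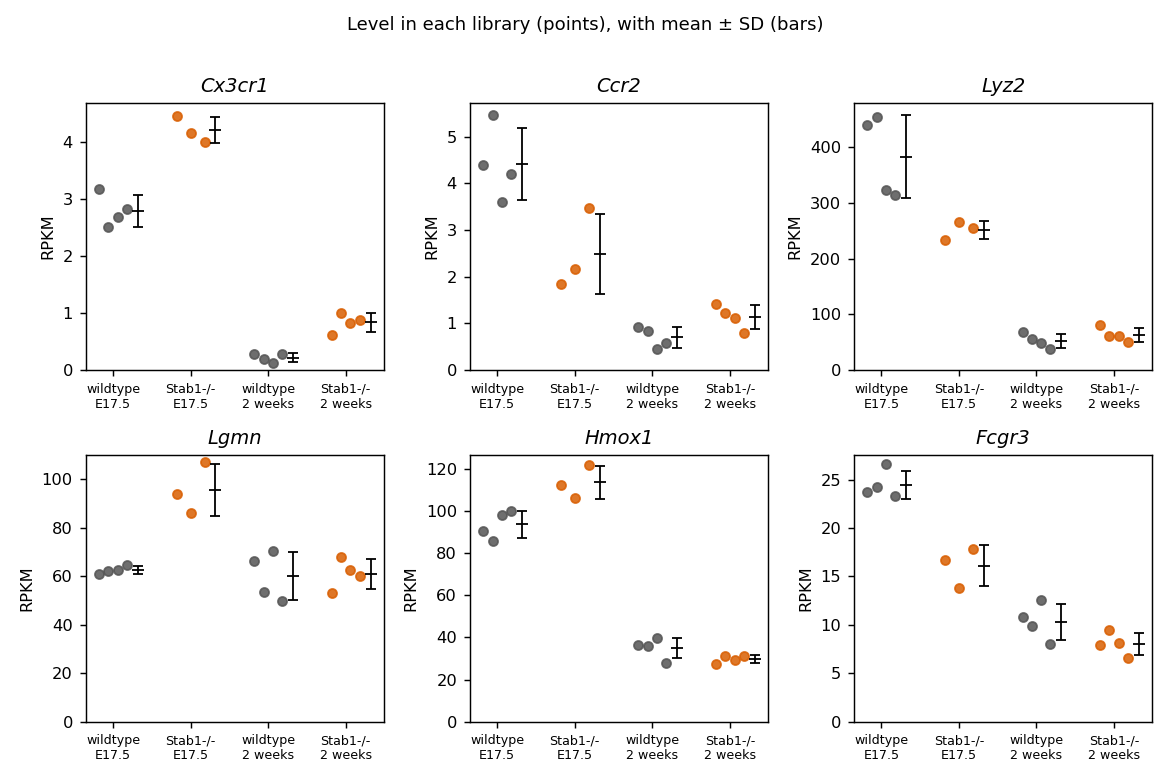
RPKM (y axes) of 6 members in each of the 15 libraries (points, grey for wildtype and orange for Stab1-/-), with the mean ± SD of the group beside them. Cx3cr1 lies higher in Stab1-/- livers at both ages, Lgmn at E17.5 only, and Ccr2, Lyz2 and Fcgr3 lie lower in Stab1-/- livers at E17.5.

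Lgmn led the genes shared by most macrophages, although legumain is not confined to them. The study's E17.5 list of higher genes holds intestinal genes, as given above. Whether other tissue in those samples added to the level of Lgmn or of other members was not tested. At E17.5 Lgmn stood at 93.9, 86.1 and 107 RPKM in Stab1-/- and 61.02, 62.1, 62.6 and 64.8 RPKM in wildtype libraries. The wildtype libraries lay within 4 RPKM of each other, and each Stab1-/- library lay well above them. The log2 fold change was 0.67 (SE 0.08, 95% interval 0.49 to 0.86, adjusted p = 0.00848), or 1.59-fold. The estimate was 0.59 to 0.72 when 1 library was left out, and the call was lost without wildtype replicate 1 (adjusted p = 0.0503). Of the 10 other alternatives, 2 edgeR fits with the replicate number as a block lost it too (adjusted p up to 0.104). At 2 weeks Lgmn stood at 53.2, 68.2, 62.8 and 60.00 RPKM in Stab1-/- and 66.5, 53.8, 70.4 and 49.9 RPKM in wildtype libraries, with full overlap and a log2 fold change of -0.07 (SE 0.13, adjusted p = 0.788).

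Csf1r encodes the receptor for the growth factors CSF1 and IL-34, on which Kupffer cells depend. Csf1r stood at 22.9, 25.7, 25.3 and 23.6 RPKM in Stab1-/- and 26.3, 22.4, 29.95 and 22.5 RPKM in wildtype libraries at 2 weeks, and at E17.5 at 43.4, 48.5 and 49.5 RPKM in Stab1-/- and 43.1, 37.9, 42.3 and 45.1 RPKM in wildtype libraries. Its estimates were -0.14 (SE 0.12) and 0.22 (SE 0.09), neither past the test, and the groups overlapped at both ages. The Fc receptor genes split. Fcgr1, the high-affinity receptor for IgG, was higher in estimate at 2 weeks (0.65, SE 0.19, adjusted p = 0.0863), and DESeq2 called it higher. Fcgr3, a low-affinity receptor for IgG, was lower in estimate at both ages.

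Fcgr3 stood at 7.94, 9.43, 8.11 and 6.603 RPKM in Stab1-/- and 10.8, 9.84, 12.5 and 8.04 RPKM in wildtype libraries at 2 weeks, and at E17.5 at 16.7, 13.8 and 17.8 RPKM in Stab1-/- and 23.7, 24.2, 26.6 and 23.3 RPKM in wildtype libraries. The groups overlapped at 2 weeks and were well apart at E17.5, with log2 fold changes of -0.45 (SE 0.15, adjusted p = 0.119) and -0.54 (SE 0.10, adjusted p = 0.0738). The second passed with DESeq2 and with limma. Fcer1g, the signalling chain of several Fc receptors, lies 164.6 kb from Fcgr3 on chromosome 1. Its estimates were -0.11 (SE 0.14) and -0.28 (SE 0.11), and those of Tyrobp, the adaptor DAP12, were 0.38 (SE 0.16) and -0.26 (SE 0.15). Fcgr3 lies 2897.6 kb and Fcer1g 2728.2 kb from Ifi202b, an interferon-activated gene on the same chromosome. The study reports Ifi202b as expressed in knockout livers and not in wildtype livers. Whether the DNA of this region differs between the genotypes, and whether that affects Fcgr3 or Fcer1g, was not tested.

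The other genes of this group are the costimulator Cd86, the lysosomal proteins Cd68 and Ctss, the pore-forming Mpeg1, the cytoskeletal Aif1 and the inhibitory receptor Sirpa. Of these, Cd86 had the widest estimate, 0.54 (SE 0.21, adjusted p = 0.148) at 2 weeks, and the others lay between -0.20 and 0.20 at both ages. Over the 12 genes, 6 estimates were positive and 6 negative at each age, and without wildtype replicate 4 of 2 weeks 4 were positive and 8 negative there (median -0.12, against -0.03).

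Of the 5 genes for handling dying cells, lipid and heme, Hmox1 encodes heme oxygenase-1, which breaks down heme from old red cells. At 2 weeks Hmox1 stood at 27.4, 31.01, 29.3 and 31.1 RPKM in Stab1-/- and 36.6, 35.8, 39.5 and 27.9 RPKM in wildtype libraries, and at E17.5 at 112, 106 and 122 RPKM in Stab1-/- and 90.5, 85.7, 98.1 and 99.8 RPKM in wildtype libraries. The groups overlapped at 2 weeks (log2 fold change -0.32, SE 0.12, adjusted p = 0.137) and did not at E17.5 (0.34, SE 0.08, adjusted p = 0.156), where DESeq2 called it higher. The receptors for dying cells Axl and Mertk had estimates of -0.03 and -0.19 at 2 weeks and 0.22 and 0.21 at E17.5. Trem2, a lipid receptor of macrophages, did not overlap at E17.5 but had few reads, since Stab1-/- libraries gave 37, 37 and 33 reads and wildtype libraries 27, 29, 24 and 20 reads (0.60, SE 0.22, adjusted p = 0.31). Gpnmb, a lysosomal glycoprotein of lipid-laden macrophages, had 1 to 9 reads per library, which is too few for a test.

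Whether the genotype effect itself differed between the ages was tested as an interaction in a fit to all 15 libraries. A total of 4 of 34 members passed (11.8%, beside 1.81% of 13885 rows). The effect was higher at 2 weeks than at E17.5 for Cx3cr1, by 1.23 on the log2 scale (SE 0.29, adjusted p = 0.0453), and for Ccr2, by 1.41 (SE 0.35, adjusted p = 0.0493). It was lower at 2 weeks for Lgmn, by -0.71 (SE 0.17, adjusted p = 0.0453), and for Hmox1, by -0.63 (SE 0.15, adjusted p = 0.0468). All 4 lay close to the limit of 0.05. DESeq2 called these 4 and Lyz2 and Nr1h3, limma on both scales called Ccr2 and Nr1h3 only, and of the 9 other alternatives 6 called Ccr2, 4 Cx3cr1 and 2 each Lgmn and Hmox1. Without edgeR's filter on low counts none passed, and leaving out 1 library at a time left 0 members in 9 of 15 fits and 1 to 5 in the other 6. The 9 fits were those without Stab1-/- replicates 1, 2 or 3 or wildtype replicate 3 of 2 weeks, and without Stab1-/- replicates 1 or 2 or wildtype replicates 1, 2 or 4 of E17.5. The direction of each of the 4 held in all of these fits and in the 9 other alternatives. With GC-content offsets the value for Ccr2 was 0.86 and no longer passed, and that for Cx3cr1 was 0.13 with 1 RPKM added before the log.

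The second question was how the genes differ between the fetal and the 2-week liver, asked in each genotype with its own libraries. From E17.5 to 2 weeks 4 of the 8 resident Kupffer cell markers rose and 2 fell in wildtype, and 5 rose and 2 fell in Stab1-/- animals. Of the 7 monocyte markers 1 rose and 4 fell in wildtype, and 2 rose and 4 fell in Stab1-/- animals. In wildtype 23 of 34 members differed (67.6%), beside 71.9% of 13369 rows, with 7 higher (20.6%, beside 34.9%) and 16 lower (47.1%, beside 37%). In Stab1-/- animals 24 of 34 differed (70.6%), beside 72.5% of 13433 rows, with 9 higher (26.5%, beside 35.7%) and 15 lower (44.1%, beside 36.8%). Scaled by library totals in place of TMM, which shifted the median of all rows from -0.01 to -0.38 in wildtype and to -0.24 in Stab1-/- animals, the split was 5 higher and 20 lower in wildtype and 5 and 17 in Stab1-/- animals. Changes are given below on the TMM scale.

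In both genotypes 5 members rose, namely Vsig4, Nr1h3, Clec4f, Folr2 and Cd14. Vsig4 rose the most. It went from 5.73 to 8.63 RPKM at E17.5 to 26.4 to 46.0 RPKM at 2 weeks in wildtype, and from 4.38 to 8.28 RPKM to 36.0 to 46.5 RPKM in Stab1-/- animals, with log2 fold changes of 2.87 (SE 0.19, adjusted p = 4.43e-08) and 2.96 (SE 0.20, adjusted p = 1.66e-07). Nr1h3 rose from 14.2 to 16.8 RPKM to 39.7 to 48.3 RPKM in wildtype and from 13.2 to 14.1 RPKM to 54.8 to 65.4 RPKM in Stab1-/- animals (1.92 and 2.36).

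Clec4f rose from 27.2 to 43.1 RPKM to 65.2 to 99.3 RPKM in wildtype and from 31.0 to 38.6 RPKM to 95.7 to 129 RPKM in Stab1-/- animals (1.54 and 1.86). Folr2 rose from 6.65 to 9.86 RPKM to 13.6 to 22.1 RPKM and from 5.80 to 9.80 RPKM to 15.9 to 19.9 RPKM (1.54 and 1.47). Cd14 rose from 1.30 to 1.92 RPKM to 2.22 to 2.58 RPKM in wildtype and from 1.21 to 2.65 RPKM to 2.28 to 3.73 RPKM in Stab1-/- animals (1.04 and 0.87). For the first 4 of these the ages did not overlap in either genotype, and for Cd14 they overlapped in Stab1-/- animals, where the call was lost under library totals and without replicate 2 or 4 of 2 weeks or replicate 2 of E17.5 (0.67 to 0.80).

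In both genotypes 13 members fell, and the 5 largest falls by the mean of both genotypes were those of Cx3cr1, Ly6c2, Lyz2, Trem2 and Ccr2. In Stab1-/- animals alone Hmox1 (-1.71) fell by more than Trem2 and Ccr2, and Spic (-1.24) by more than Ccr2. Cx3cr1 fell from 2.499 to 3.17 RPKM to 0.125 to 0.280 RPKM in wildtype and from 3.996 to 4.46 RPKM to 0.621 to 1.01 RPKM in Stab1-/- animals, with log2 fold changes of -3.31 (SE 0.22, adjusted p = 5.77e-08) and -2.10 (SE 0.18, adjusted p = 1.14e-06). Ly6c2 fell from 20.3 to 24.9 RPKM to 2.04 to 3.55 RPKM and from 17.1 to 18.4 RPKM to 2.93 to 4.54 RPKM (-2.62 and -2.07). Lyz2 fell from 314 to 454 RPKM to 37.2 to 68.2 RPKM and from 234 to 266 RPKM to 50.3 to 80.2 RPKM (-2.51 and -1.79).

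Ccr2 fell from 3.61 to 5.47 RPKM to 0.446 to 0.932 RPKM in wildtype and from 1.85 to 3.47 RPKM to 0.801 to 1.41 RPKM in Stab1-/- animals (-2.30 and -0.92). Trem2 fell from 1.63 to 2.42 RPKM to 0.164 to 0.616 RPKM and from 2.72 to 3.09 RPKM to 0.442 to 1.08 RPKM (-2.21 and -1.52). For each of the 5 the ages did not overlap in either genotype. The other 8 were Hmox1, Spic, Adgre1, Csf1r, Fcgr3, Fcer1g, Mpeg1 and Axl, with log2 fold changes between -1.71 and -0.37. The fall of Mpeg1 was lost without wildtype replicate 3 of E17.5 (-0.34) and, in Stab1-/- animals, without replicate 2 of E17.5 (-0.38).

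Spic and Adgre1 thus fell although they belong to the resident markers. Of the 8 resident markers, 4 rose, 2 fell and 2 did not pass in wildtype, and 5 rose, 2 fell and 1 did not pass in Stab1-/- animals. Of these, the rise of Cd5l in Stab1-/- animals (0.41, SE 0.15, adjusted p = 0.026) was lost in 7 alternative fits. Among them were those without Stab1-/- replicate 2 of 2 weeks or replicate 1 or 2 of E17.5 (0.29 to 0.41). The fall of Adgre1 in Stab1-/- animals (-0.39, SE 0.13, adjusted p = 0.0162) was lost without replicate 2 or 3 of E17.5 (-0.36 and -0.29). Timd4 passed in neither (0.12, SE 0.14, and -0.01, SE 0.12), and neither did C1qb or C1qc. For C1qb the wildtype value of 0.05 became -0.31 under library totals and passed the test there.

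Lgmn rose in wildtype (0.30, SE 0.11, adjusted p = 0.0313) and fell in Stab1-/- animals (-0.43, SE 0.12, adjusted p = 0.00678). Under library totals the wildtype value was -0.06 and no longer passed, and its call was also lost without replicate 1 or 3 of 2 weeks or any 1 of the 4 replicates of E17.5 (0.22 to 0.31). Cd5l, C1qa, Clec7a and Aif1 passed as higher in Stab1-/- animals only, Sirpa as higher in wildtype only, Tyrobp, Fcgr1 and Cd86 as lower in wildtype only, and Mertk as lower in Stab1-/- animals only. These do not show differences between the genotypes, since the test of that difference is the interaction above, and none of these 9 passed it. The call of C1qa in Stab1-/- animals was lost in 2 alternative fits, and C1qa passed in wildtype in 5. Over all 13225 rows tested in both genotypes, 8030 (60.7%) were called with the same direction and 44 with opposite directions, and among the members 18 of 34 and 1 of 34.

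**Figure D3:**
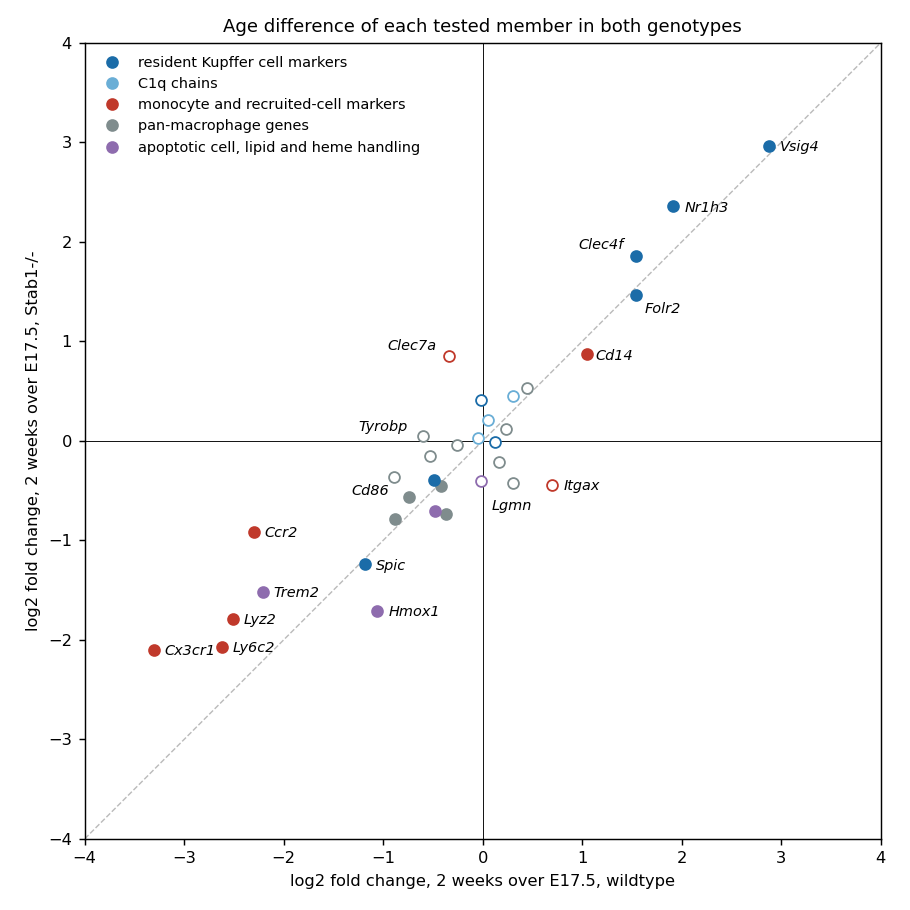
Log2 fold change of 2 weeks over E17.5 in wildtype (x axis) and in Stab1-/- liver (y axis) for each tested member, coloured by group of members, with the line of equal values dashed. Filled points passed in both genotypes in the same direction, with Vsig4 at the upper right (2.87 and 2.96) and Cx3cr1 at the lower left (-3.31 and -2.10).

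The groups of members can also be read as levels, taken as the mean of log2(RPKM + 0.1) over their genes in each library, with no test since the genes were chosen together. The resident markers stood at 4.15 ± 0.12 (SD, n = 4) in wildtype and 4.14 ± 0.21 (SD, n = 3) in Stab1-/- livers at E17.5, and at 4.57 ± 0.21 and 4.86 ± 0.15 (SD, n = 4 each) at 2 weeks. The monocyte group stood at 2.56 ± 0.14 and 2.43 ± 0.15 at E17.5 and at 0.92 ± 0.20 and 1.46 ± 0.22 at 2 weeks. The mean level of the resident markers was thus a little higher after birth, and that of the monocyte group much lower. The latter held in every library of both genotypes. Single genes went the other way, since Spic and Adgre1 fell and Cd14 rose in both genotypes, and Clec7a rose in Stab1-/- animals.

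The resident level minus the monocyte level was 1.59 ± 0.14 in wildtype and 1.71 ± 0.18 in Stab1-/- livers at E17.5, and 3.65 ± 0.17 and 3.40 ± 0.11 at 2 weeks. The 2 ages were far apart in both genotypes, and the genotypes overlapped at both ages. At 2 weeks the monocyte group ranged from 1.21 to 1.68 in Stab1-/- and from 0.70 to 1.15 in wildtype libraries, without overlap, where Cx3cr1 and Clec7a had the largest estimates. This mean gives genes with few reads the same weight as Lyz2. The summed RPKM of the group overlapped, with 61.7 to 96.1 in Stab1-/- and 43.9 to 77.9 in wildtype libraries.

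**Figure D4:**
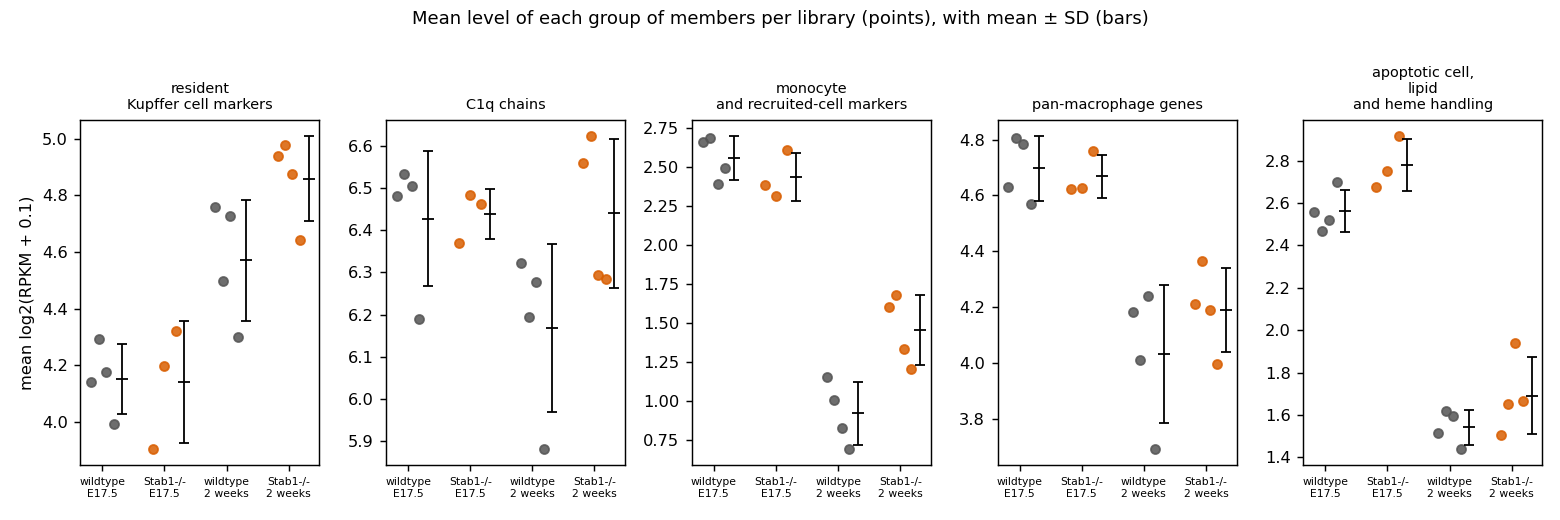
Mean of log2(RPKM + 0.1) over the genes of each group of members (y axes, with a scale of their own) in each of the 15 libraries (points, grey for wildtype and orange for Stab1-/-), with the mean ± SD of the libraries. The monocyte group is lower at 2 weeks (0.92 in wildtype, 1.46 in Stab1-/-) than at E17.5 (2.56 and 2.43).

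Other macrophage genes, 47 of them outside the list above, were counted the same way. Not all of these are confined to macrophages, such as Apoe, with 117923 to 199692 reads per library at 2 weeks. Csf1 and Il34 encode ligands that act on macrophages. At E17.5 edgeR called none of 44 by genotype (median -0.14), while 13 had an unadjusted p under 0.05 and DESeq2 called Coro1a and Marco. At 2 weeks the median over the 45 tested was 0.01.

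Between the ages 37 of 45 of these genes differed in wildtype, 15 higher and 22 lower, and 40 of 46 in Stab1-/- animals, 17 higher and 23 lower. Most genes of any kind differed, since of all rows tested 71.9% were called in wildtype and 72.5% in Stab1-/- animals. The largest differences in wildtype were those of F13a1, which encodes coagulation factor XIII A of monocytes and macrophages (-5.66), the desaturase gene Scd2 (-5.30), Chil3 of alternatively activated macrophages (-4.78), and Itgam, the integrin CD11b (-3.80). In Stab1-/- animals they were F13a1 (-5.88), Scd2 (-5.64), Itgam (-3.74) and Il34, a ligand of the receptor encoded by Csf1r (3.63). Reads were few at the lower age for Il34 (2, 2 and 4 in Stab1-/- libraries at E17.5). They were also few for F13a1 at 2 weeks (3, 10, 4 and 5 in Stab1-/- and 9, 9, 4 and 7 in wildtype libraries). All 12 neutrophil and all 10 erythroid markers were lower at 2 weeks in both genotypes, with medians of -5.82 and -6.70 in wildtype and -4.81 and -6.47 in Stab1-/- animals. The share of cells of each type was not measured.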

How the data were processed

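Liver RNA of 15 animals was sequenced on an Illumina platform after column extraction. The authors deposited one table in which the counts are raw, as whole numbers of reads that mapped to one place. The deposited RPKM scales each count by the gene's length and the library's reads on genes, and the scaling was checked against the counts (largest deviation 7.66e-12 percent). The authors also gave coverage, the percent of each gene model that reads reached. The aligner, the genome build and the use of strand are not given in the sources used here. No pair of libraries of a group was alike within sampling noise (smallest chi-square per degree of freedom 6.46 at 2 weeks and 5.41 at E17.5).

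Tests were run on all rows of the counts in edgeR 4.0.16 under R 4.3.3, with TMM normalization, filterByExpr (minimum count 10, minimum total 15), the two-sided quasi-likelihood test and Benjamini-Hochberg adjustment at 0.05. Each genotype and each age comparison was fitted on its own libraries, and the difference between ages as an interaction over all 15. Alternatives were DESeq2 1.42.0, limma 3.58.1 on log2(RPKM + 0.1) and log2(RPKM + 1), scaling by library totals, no filter, the replicate number as a block, all 15 libraries in one fit, and each library left out in turn. GC-content offsets, alone and with the block, and fits without 21 rows (the top 10 by reads of each library, pooled) were added after seeing the data. Over the tested rows with a known GC content, the genotype log2 fold change followed it with a rank correlation of -0.337 at 2 weeks and 0.15 at E17.5. For the interaction the rank correlation was -0.294. On simulated counts with 200 changed genes edgeR recovered 200 in each comparison, with 8 to 14 false calls. Recovery of differences as small as most genotype estimates given here, or in genes with few reads, was not tested. Positions come from GENCODE vM21 on GRCm38, and motifs were searched in RefSeq sequences with Python 3.11.15.

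Members and lists were chosen with earlier results of these data known. Library values are given for the members that passed a genotype or interaction test and for the main markers of each role. For the age comparisons, the 5 largest rises and 5 largest falls shared by both genotypes, by the mean of both, are named, and for the other macrophage genes the 4 largest changes. Further members are named by role. A result among the other macrophage genes is not reported here.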

Additional observations from a re-analysis of the deposited data

Results flagged for a closer look

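The genotype effect differed between the ages for 4 members by the interaction test. On the log2 scale, the effect at 2 weeks minus that at E17.5 was 1.225 for Cx3cr1, 1.407 for Ccr2, -0.705 for Lgmn and -0.627 for Hmox1, and none of these passed when edgeR's filter on low counts was left off.

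Single libraries lay far from the other 3 of their group in 6 of 105 groups of 4, where chance flags about 1 in 20 groups, or 5.25. Stab1-/- replicate 4 at 2 weeks was low for Vsig4 (36.0 RPKM, the nearest library 45.2 RPKM) and for Spic (2.596 RPKM, the nearest 3.68 RPKM). Wildtype replicate 1 at E17.5 was high for Vsig4 (8.627 RPKM, the nearest 6.21 RPKM) and low for Spic (7.117 RPKM, the nearest 9.16 RPKM). At 2 weeks wildtype replicate 4 was low for Clec7a (0.8646 RPKM, the nearest 2.77 RPKM), and wildtype replicate 3 was high for Sirpa (27.21 RPKM, the nearest 24.9 RPKM).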

How the results depend on the processing

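At 2 weeks 1 member passed under library totals, without the filter, without the genes with most reads and with both limma scales, 2 with GC-content offsets, 3 with all 15 libraries in one fit and 4 with DESeq2. Cx3cr1 passed in each. At E17.5 the count was 5 with DESeq2 and 2 with both limma scales. For the difference between ages it was 0 without the filter, 6 with DESeq2 (4 higher), 3 with library totals (all higher), 2 with both limma scales and 2 with GC-content offsets. With 1 library left out it was 1 to 1 at 2 weeks, 0 to 1 at E17.5 (0 without wildtype replicate 1), 0 to 5 for the difference between ages, and 21 to 25 in wildtype and 20 to 24 in Stab1-/- animals between the ages. From E17.5 to 2 weeks in wildtype, Lgmn turned from 0.30 to -0.061 under library totals and to -0.073 and -0.072 with limma, and C1qb from 0.05 to -0.308, -0.307 and -0.304. Library totals shift all rows, as given in the report.

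With the replicate number as a replicate block, 2 members passed at 2 weeks and 0 at E17.5, and 3 for the difference between ages. With GC-content offsets and the block these counts were 4, 0 and 3. Lgmn at E17.5 was lost in both fits with the block (adjusted p up to 0.104), while its log2 fold change stayed between 0.60 and 0.68 in the 10 alternatives other than leaving out a library. Deviations of same-numbered libraries correlated by -0.012 to 0.166 at 2 weeks and by -0.178 to -0.027 at E17.5, and the labels do not say that numbers pair animals, so the block was not used. Whether the numbers pair them was not settled. Over all rows the calls at 2 weeks were 119 higher and 221 lower, against 137 and 118 under library totals, 420 and 441 with DESeq2 and 642 and 539 with the block, and for the difference between ages 111 and 140, against 209 and 83 under library totals. Reads are few for Gpnmb, Itgax, Trem2 and Cd14, and at 2 weeks also for Cx3cr1, Ccr2 and Ly6c2.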
